A study of Rattus norvegicus with 12 samples.

Results

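The measurements described here concern the olfactory receptor probes that gave a signal in rat colon. Olfactory receptors are G protein-coupled receptors whose genes form the largest gene family of most mammals. In olfactory sensory neurons of the nose they couple through the G protein alpha subunit Gnal to adenylyl cyclase Adcy3, and the cyclic AMP formed opens cyclic nucleotide-gated channels. Class I receptors are related to those of fish and class II receptors make up the rest. Transcripts of some family members are known from tissues outside the nose, among them a short-chain fatty acid receptor named Olr59 on this array and Or51e2 in the current nomenclature.

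The members were chosen by a measured value, the detection mark of the array scanner software. A probe was a member if its gene name was Olr followed by a digit and if it was marked as well above background on at least 6 of the 12 arrays. Of 30367 probes on the array, 1211 carried such a name, and 134 of these, for 133 names, were members. Of the 134, 88 were well above background on all 12 arrays and 46 on 6 to 11 arrays. At the edge of the rule, the probes of Olr417, Olr840, Olr883 and Olr1598 were marked on 6 arrays, and those of Olr287, Olr311, Olr428, Olr1163, Olr1286, Olr1394 and Olr1681 on 5. Olr1 does not belong to the family. In the rat it is the gene of the oxidized low density lipoprotein receptor, a scavenger receptor of endothelium and macrophages whose symbol happens to start with the same letters, so counts are also given without it.

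The study asked how separation of newborn pups from their mothers (neonatal maternal separation, NMS), which is used to model visceral hypersensitivity, and the probiotic mixture VSL#3 changed gene expression in the colon. The animals were male Wistar rats, 4 in each of 3 groups, and all had undergone colorectal distension (CRD). Rats of Group C were normally handled and given placebo, rats of Group M were kept away from the dam 180 min a day between day 2 and day 14 of life and given placebo, and rats of Group D were separated in the same way and given VSL#3. Placebo or VSL#3 was given by gavage from day 3 to day 60, when the colon was taken. Since placebo was given to both Group C and Group M, the comparison of Group M with Group C bears on NMS and the comparison of Group D with Group M on VSL#3 in separated rats. The labels do not say which rats were littermates, so the p-values measure the spread between these animals. A piece of colon holds epithelium, muscle, nerves and blood cells, and fewer cells of a type cannot be told apart from less RNA per cell.

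Each rat was measured on 1 Cy3 array, and the number of arrays limits the precision. The rats are named C1 to C4, M5 to M8 and D9 to D12. The 75th percentile of the signal lay between 1434 and 1950 over the arrays, and the share of spots well above background was 75.5% to 77.5%. Groups C and M lay on the same slide in different rows, and Group D lay on another slide, so slide cannot be told apart from group in the comparisons with Group D, nor row from group in that of Group M with Group C. The methods describe 11 arrays, with D9 to D11 in Group D, and give no reason for leaving out D12. The differences below therefore rest on 11 arrays, with 3 rats in Group D, and the value of D12 is given beside them. All signals are log2 of the processed signal relative to the 75th percentile of the array, so a lower negative number is a weaker signal. Signals of different probes are not compared, because probes differ in how well they hybridize.

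The probes are single 60-base stretches, and a few are printed to show what the array could tell apart. All positions are on build rn4. The capitals mark AGGAACAA, a run that was searched for because it is common in the part of the coding region just after the last membrane-spanning helix of these receptors. On the printed strand it was held by 87 of the 1211 Olr probes (7.18%), by 7 of the 134 members (5.22%) and by 158 of all 30367 probes (0.520%). Its reverse complement was found in 4 Olr probes, 2 of them members, and in 64 of all probes. The first 4 sequences are members that hold the run, with Olr35 first because its signal differed most between groups among the olfactory receptors. It is the probe of chr1:157076061-157076120, plus strand. Those of Olr1387 (chr10:34741264-34741323, plus), Olr1694 (chr20:664461-664520, minus) and Olr1750 (chr20:1543651-1543710, plus) follow.

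Olr35: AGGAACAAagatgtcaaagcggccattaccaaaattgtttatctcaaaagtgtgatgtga

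Olr1387: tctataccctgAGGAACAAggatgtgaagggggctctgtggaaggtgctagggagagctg

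Olr1694: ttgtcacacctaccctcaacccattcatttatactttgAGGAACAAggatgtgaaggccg

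Olr1750: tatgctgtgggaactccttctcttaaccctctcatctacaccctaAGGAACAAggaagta

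The run is also in the probes of Olr757, Olr1400 and Olr1411. The next sequences show the opposite case, 2 members whose probes can hardly be told apart. The probes of Olr1247 (chr8:40696505-40696564, plus) and Olr1248 (chr8:40711214-40711273, plus) matched at 56 of 60 bases when aligned without gaps, and both were well above background on all 12 arrays.

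Olr1247: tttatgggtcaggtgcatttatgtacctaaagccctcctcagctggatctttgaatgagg

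Olr1248: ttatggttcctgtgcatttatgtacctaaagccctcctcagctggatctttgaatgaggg

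Signals of such pairs are uncertain as to their gene. Another Olr probe matched at 48 or more bases for 16 of the 134 members and at 54 or more for 4, and the median of the best match was 37 bases. For Olr35 the closest other probe, that of Olr1591, matched at 36 bases and was well above background on no array. Olr103, a class I receptor on chr1:161205705-161205764 (plus), had a close neighbour in the probe of Olr98, which matched at 55 bases and was marked on no array.

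Olr103: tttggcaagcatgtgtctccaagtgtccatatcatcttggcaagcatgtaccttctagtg

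Most of the receptor repertoire was not detected in the colon. Of the 1211 Olr probes, 865 were well above background on no array, 168 on 1 array and 88 on all 12, with few between. The share of Olr probes detected on at least 6 arrays was 11.1%, against 72.3% of all probes. Probes of other chemosensory receptors were also detected in part. The vomeronasal families Vom1r and Vom2r had 16 of 98 probes (16.3%) and 14 of 96 probes (14.6%) over the same limit. The trace amine receptors had 1 of 17, the sweet and umami taste receptors (Tas1r) 1 of 2 and the bitter taste receptors (Tas2r) 2 of 31. Detection moved with base composition of the probe, as the GC content had a median of 38.3% for Olr probes on no array, 41.7% for those on 1 to 5 arrays, 42.5% for those on 6 to 11 and 45% for those on all 12. The part of GC content in detection was not tested.

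**Figure D1:**
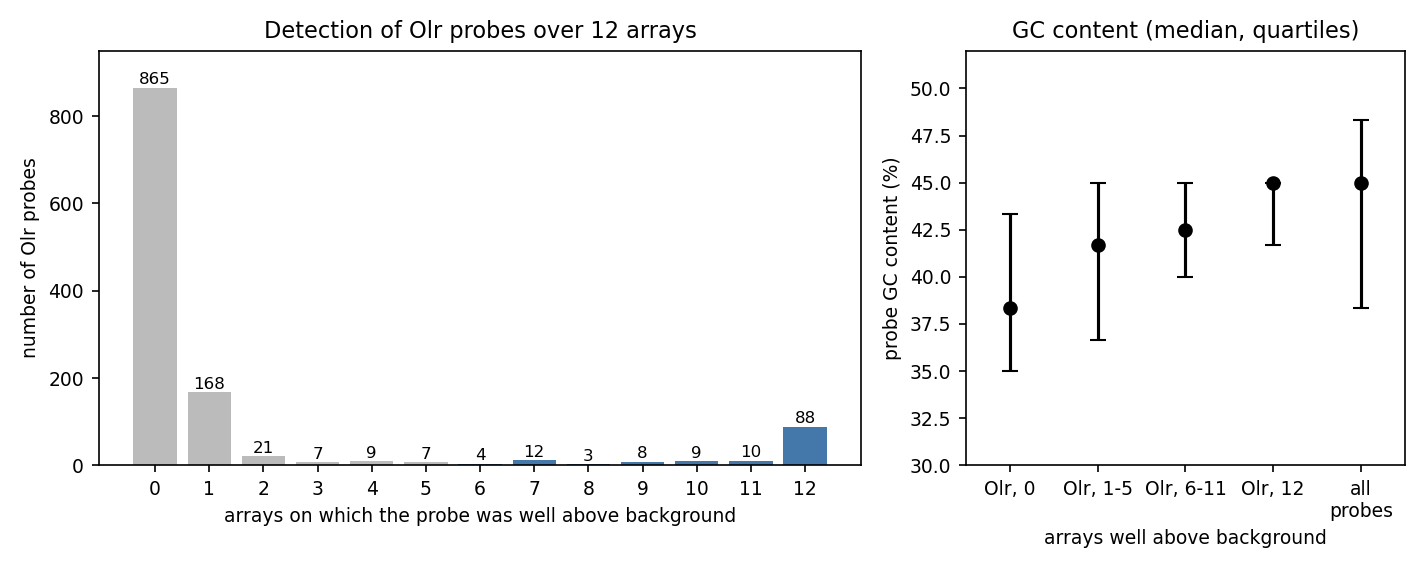
Left, number of Olr probes (vertical axis) by the number of arrays, 0 to 12, on which the probe was well above background, with the members in blue; 865 probes lie at 0 and 88 at 12. Right, median GC content of the probes in percent with quartiles as bars, which was 38.3% for Olr probes on no array and 45% for those on all 12 as well as for all probes.

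Members came from both classes. By the current family names, 17 of 127 class I probes (13.4%), 107 of 1000 class II probes (10.7%) and 9 of 83 probes without a family name (10.8%) were members. The class I members were Olr59, Olr63, Olr68, Olr107, Olr125, Olr132 and Olr143 of family 51, Olr80, Olr92, Olr94, Olr95, Olr103, Olr124, Olr168 and Olr202 of family 52, and Olr162 and Olr200 of family 56. Olr59 and Olr63 are the rat Or51e2 and Or51e1, neighbouring receptors known for responses to fatty acids. Among class II families, family 13 had 9 of its 42 probes detected (21.4%), namely Olr213, Olr312, Olr390, Olr836, Olr837, Olr838, Olr840, Olr857 and Olr859. Family 6 had 14 of 85 (16.5%), which were Olr7, Olr19, Olr286, Olr288, Olr386, Olr825, Olr922, Olr1002, Olr1051, Olr1341, Olr1343, Olr1593, Olr1646 and Olr1l. Family 7 had none of 55. The members without a family name were Olr35, Olr883, Olr1057, Olr1143, Olr1400, Olr1454, Olr1564, Olr1572 and Olr1867.

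The other class II members were spread over several families. Family 1 gave 15 probes, those of Olr402, Olr403, Olr417, Olr425, Olr1366 (with 2 probes), Olr1375, Olr1381, Olr1405, Olr1411, Olr1475, Olr1515, Olr1516, Olr1519 and Olr1714. Family 2 gave 14, namely Olr217, Olr221, Olr819, Olr1387, Olr1395, Olr1401, Olr1414, Olr1415, Olr1439, Olr1462, Olr1605, Olr1682, Olr1694 and Olr1750. Family 4 gave 16, which were Olr325, Olr651, Olr658, Olr687, Olr689, Olr714, Olr727, Olr733, Olr741, Olr752, Olr757, Olr769, Olr775, Olr784, Olr789 and Olr791. Family 5 gave 14, Olr237, Olr259, Olr260, Olr278, Olr337, Olr361, Olr472, Olr546, Olr569, Olr575, Olr1535, Olr1547, Olr1555 and Olr1557. Family 8 gave 10, Olr528, Olr567, Olr1105, Olr1206, Olr1227, Olr1229, Olr1247, Olr1248, Olr1262 and Olr1303. Family 10 gave 9, Olr3, Olr230, Olr285, Olr862, Olr875, Olr1335, Olr1582, Olr1584 and Olr1598. Olr1347 and Olr1349 belonged to family 9, and Olr1509, Olr1111, Olr1736 and Olr1688 were the members of families 3, 11, 12 and 14.

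The members lay where the olfactory receptor clusters of the rat lie. Chromosome 1 held 37 of its 289 Olr probes as members, chromosome 3 held 25 of 292, chromosome 10 held 20 of 123 and chromosome 8 held 11 of 159. Another member lay within 50 kb of 42 of the 134 members (31.3%), and a member lay within 50 kb of 278 of 1075 other Olr probes (25.9%). By accession, 131 members matched a gene of the RefSeq annotation on GRCr8, of which 123 have since been renamed, and the median gene length was 942 bases, with 116 of the 131 under 2000 bases. Olr883, Olr1572 and Olr1867 were not matched. Where a name had a second probe, the pair did not always agree in detection. The probes of Olr1411, Olr1454 and Olr200 were marked on 12 arrays and on 0, those of Olr1366 on 12 and 11, those of Olr1057 on 10 and 1, those of Olr875 on 7 and 4, and those of Olr883 on 6 and 0.

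The machinery that goes with these receptors in the nose was detected only in part. Of 14 genes of olfactory transduction, 13 were on the array. Gnal, Gnb1, Gng13 and Ric8b (the G protein subunits and the exchange factor that acts on Gnal), together with Adcy3, Pde4a, Adrbk2 and Arrb2, were well above background on all 12 arrays. The olfactory channel subunits Cnga2, Cnga4 and Cngb1, the exchanger Slc24a4 and the phosphodiesterase Pde1c were so on none. Of the genes for receptor export, Reep1 was detected on 12 arrays, Rtp1 on 6 and Rtp2 on 0. Of those for receptor choice, the cofactor Ldb1 and Ebf2 were detected on 12 arrays, and the transcription factors Lhx2 and Emx2 on 0. Among markers of the olfactory neuron, Omp, Gng8 and Adcy3 were detected on 12 arrays, Ncam2 on 10, and Stoml3 and Cnga2 on 0.

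The number of Olr probes detected per array ran from 130 to 172 and overlapped between groups. It was 130, 130, 168 and 137 in C1 to C4, 172, 162, 158 and 141 in M5 to M8, and 137, 149, 136 and 142 in D9 to D12. Much of the excess in M5, M6 and M7 came from probes seen on a single array, 38, 33 and 25 of them, against 1 to 21 in the other rats. The median signal of the members stayed between -5.80 and -5.55. On every array of a group, 106 members were detected in Group C, 103 in Group M and 99 in Group D, each with 4 rats.

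The signal of most members varied little between rats. The range over the 12 arrays had a median of 0.91 log2 units and was under 1 for 74 of the 134. The median standard deviation was 0.27, against 0.29 for all probes. A range of at least 2 was seen for 10 members: Olr1 (5.11), Olr417 (3.59), Olr35 (3.34), Olr59 (3.32), Olr1646 (3.32), Olr107 (2.46), Olr103 (2.23), Olr883 (2.19), Olr94 (2.12) and Olr1584 (2.07). Olr59, Olr94, Olr103 and Olr107 of these are class I receptors, Olr1 is the scavenger receptor, and Olr35 and Olr883 have no family name.

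**Figure D2:**
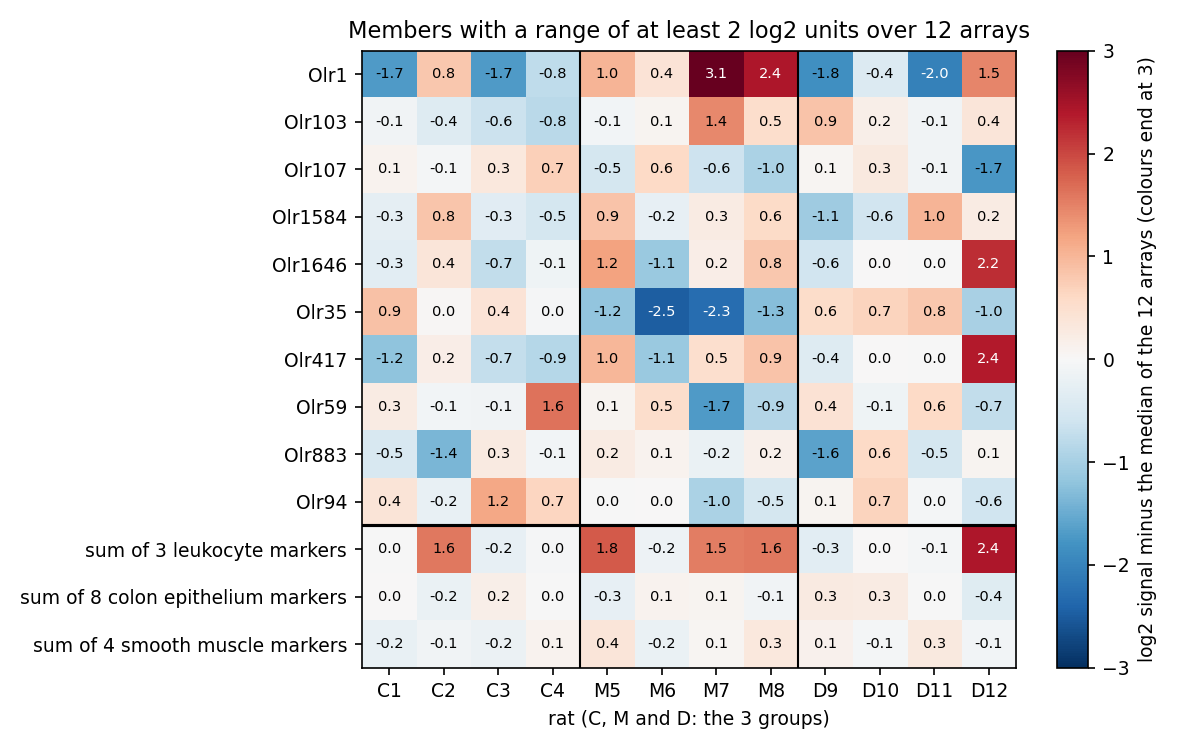
Log2 signal minus the median of the 12 arrays (colour and printed number, colours ending at 3) for the 10 members with a range of at least 2, one column per rat, above the summed signal of 3 leukocyte, 8 colon epithelium and 4 smooth muscle markers. Olr35 was low in all 4 rats of Group M and in D12, and Olr417 and Olr1646 were highest in D12, where the leukocyte sum was also highest.

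In NMS rats, Olr35 was downregulated and no other olfactory receptor passed the test against Group C. Olr35 was selected with this difference known, so its values are a description. Its signal was -2.54, -3.38, -2.99 and -3.44 in C1 to C4 and -4.60, -5.88, -5.70 and -4.69 in M5 to M8. All 4 rats of Group M were below all 4 of Group C, and the difference was -2.13 ± 0.31 (SE; limma, adjusted p = 0.0422 over all probes). With D12 in the fit the difference was the same and the adjusted p was 0.141. When each of the 11 arrays was left out in turn, the difference ran from -2.33 to -1.91 and the adjusted p (limma) from 0.0102 to 0.153. The call held in 3 of 11 fits, those without C2, M5 or M6, and was lost without C1, C3, C4, M7, M8, D9, D10 or D11. The fits that lost it called 4 to 28 of all 30367 probes, and those that kept it 16 to 1778, against 51 on the 11 arrays. Over all probes, 0.168% passed the limits of an adjusted p of 0.05 and a 2-fold difference, and on 12 arrays 0.0329% did. Among members the count was 1 of 134 on 11 arrays and 0 on 12.

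The scavenger receptor Olr1 stood at the opposite end. Its signal was -6.63, -4.12, -6.62 and -5.68 in Group C and -3.91, -4.51, -1.85 and -2.49 in Group M. The groups overlapped, since C2 was above M6, and the difference was 2.57 ± 0.72 (limma, adjusted p = 0.110). Olr1 was not well above background on all 12 arrays. By the criterion of the methods, a Tukey test after a test across the groups at an unadjusted p of 0.05 with a 2-fold difference, Olr1 and Olr35 passed. This was 2 of 134 members, or 1 without Olr1, where 2.33% of all probes passed. On 12 arrays Olr35 alone passed, where 1.56% of all probes did.

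After Olr35, the most negative differences among members on all 12 arrays were those of the class I receptors Olr59 and Olr107, which did not pass. The fatty acid receptor Olr59 had -2.77, -3.12, -3.13 and -1.39 in Group C and -2.93, -2.49, -4.72 and -3.91 in Group M, a difference of -0.91 ± 0.52 (limma, adjusted p = 0.325) that ran from -1.25 to -0.51 when 1 array was left out, with -0.51 without C4 or M7. Of the 4 rats of Group C, 3 lay within the range of Group M at Olr59. Olr107 had -4.52, -4.69, -4.31 and -3.92 in Group C and -5.17, -4.03, -5.26 and -5.59 in Group M, a difference of -0.65 (-0.98 without M6 and -0.46 without M8) with 3 rats of Group M below all of Group C and M6 within its range.

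Olr103, Olr168 and Olr337 had the largest positive differences among members on all 12 arrays. Olr103 (now Or52ae7) had -3.79, -4.06, -4.33 and -4.48 in Group C and -3.76, -3.60, -2.25 and -3.15 in Group M, a difference of 0.98 ± 0.33 (limma, adjusted p = 0.137). Olr168 (Or52n4d) had -6.10, -6.42, -6.26 and -5.96 in Group C and -5.62, -5.91, -5.44 and -5.52 in Group M, a difference of 0.56 ± 0.16 (adjusted p = 0.109). For both receptors the groups did not overlap, though the gap of Olr103 between C1 and M5 was small. Olr337 (Or5a3) had -5.83, -5.57, -5.80 and -5.75 in Group C and -5.0, -5.67, -5.51 and -4.91 in Group M, a difference of 0.47 ± 0.17 (adjusted p = 0.157), with M6 inside the range of Group C.

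**Figure D3:**
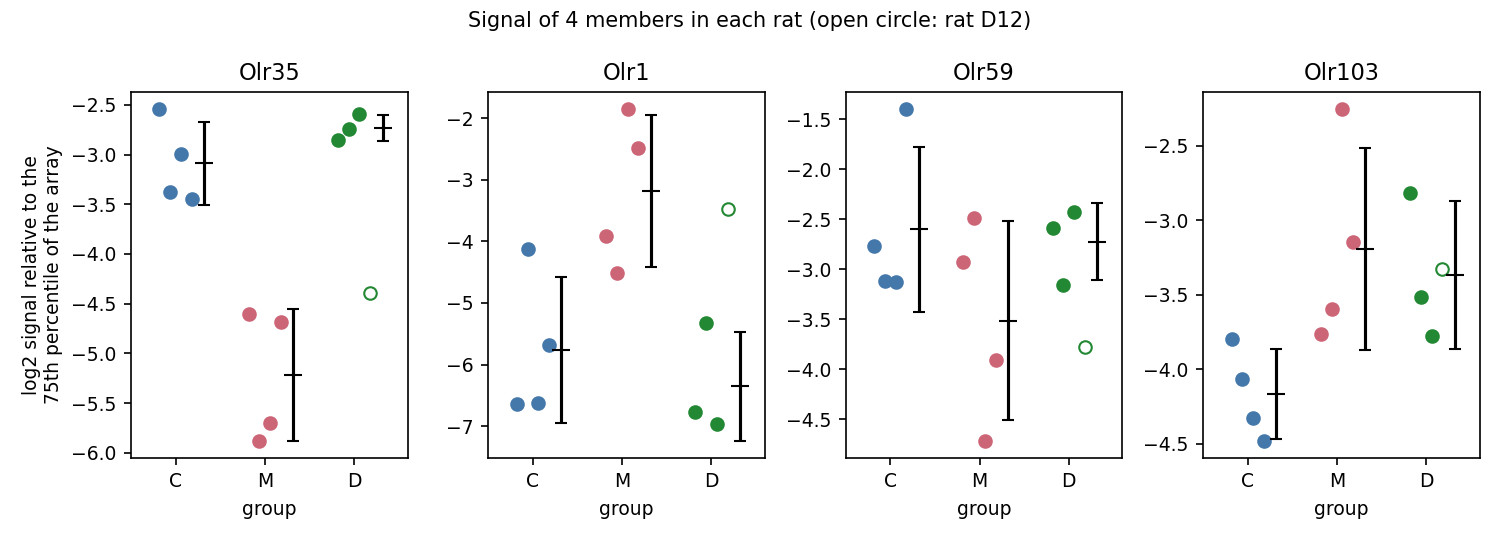
Log2 signal relative to the 75th percentile of the array for Olr35, Olr1, Olr59 and Olr103, one point per rat in Groups C, M and D, with mean and SD beside them; the mean and SD of Group D leave out D12 (open circle). Olr35 was between -3.44 and -2.54 in Group C, between -5.88 and -4.60 in Group M and at -4.39 in D12.

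The family as a whole had differences centred near 0. The median difference of Group M from Group C was -0.03 over the 134 members, of which 61 were higher and 73 lower, and -0.01 over all probes. The difference was within 0.5 for 117 members (87.3%), against 79.5% of all probes. At an unadjusted p of 0.05, 16 members passed (11.9%; 15 without Olr1), where 22.7% of all probes did. They were Olr35, Olr1, Olr80, Olr94, Olr103, Olr168, Olr259, Olr285, Olr288, Olr337, Olr775, Olr819, Olr1206, Olr1347, Olr1366 and Olr1688. The signals of Groups C and M did not overlap for 10 members (7.46%), against 9.25% of all probes on 11 as on 12 arrays, since D12 does not enter that count. Olr80 is among the 16 and the 10. It was a member only through Groups C and D, so its place there is no test.

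Olr80 and Olr417 had a group with no array well above background, so their differences are bounds. Both passed the rule only through the groups where they were high, so these values describe what the rule used and are no test. The dim group was set to the higher of its own signal and the lowest signal well above background on each array, which for Olr80 was its own signal. Olr80 (Or52e2) was marked on 3 arrays of Group C, none of Group M and all 4 of Group D. Its bound, 1.73-fold lower in Group M than in Group C, was thus its measured difference. The bounds given here make no allowance for the spread between rats. Olr417 (Or1n2) was marked on no array of Group C and on 3 of Group M, and its signal there exceeded that of Group C by at least 1.76-fold, though M6 at -8.03 lay with Group C.

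In NMS rats given VSL#3, Olr35 was upregulated relative to Group M when D12 was left out. The signals were -2.85, -2.75 and -2.59 in D9 to D11, close to Group C, and -4.39 in D12, close to the highest rat of Group M at -4.60. The difference of Group D from Group M was 2.49 ± 0.34 (limma, adjusted p = 0.0476) on 11 arrays and 2.07 (adjusted p = 0.146) with D12. With each array left out in turn the adjusted p (limma) ran from 0.00743 to 0.142. The call held in 2 of 11 fits, without C2 or M6, and was lost without C1, C3, C4, M5, M7, M8, D9, D10 or D11. The fits that lost it called 1 to 10 of all 30367 probes, and those that kept it 58 and 1978, against 38 on the 11 arrays. Both the difference of Group D from Group M and the earlier difference rest on the same rats of Group M. Against Group C the difference of Group D was 0.36 ± 0.34 (adjusted p = 0.981) on 11 arrays and -0.06 with D12, so its sign turned with that rat. In the comparison of Group D with Group M, 0.125% of all probes were called on 11 arrays and 0.0132% on 12, and 1 of 134 members and 0 of 134 were. Group D lay on its own slide.

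Olr1 had -6.77, -5.33 and -6.96 in D9 to D11 and -3.47 in D12, and it differed from Group M by -3.17 ± 0.78 (limma, adjusted p = 0.0900). D9 to D11 were below all rats of Group M, and D12 lay among them. By the criterion of the methods Olr1 and Olr35 passed on 11 arrays, where 2.65% of all probes did, and Olr35 alone on 12, where 0.948% did. Olr59 had -2.59, -3.16 and -2.42 in D9 to D11 and -3.77 in D12, a difference of 0.79 ± 0.56 from Group M (adjusted p = 0.447) that was 0.53 with D12 and 0.39 without M7. Olr107 had -4.58, -4.34 and -4.75 and, in D12, -6.38, a difference of 0.46. The D12 value of Olr107 was the lowest of all 12 rats, and with it the difference was 0.00045; without M8 it was 0.26 and without M6 0.78.

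Among members on all 12 arrays, Olr337, Olr390 and Olr1375 had the most negative differences of Group D from Group M. Olr337 had -5.84, -5.60 and -5.89 in D9 to D11 and -5.71 in D12, a difference of -0.51 ± 0.19 (limma, adjusted p = 0.162). Olr390 (Or13l2) had -0.77, -0.87, -0.78 and -0.61 in Group M, -1.30, -1.03 and -0.99 in D9 to D11 and -0.70 in D12, a difference of -0.35 ± 0.14 (adjusted p = 0.178). Olr390 in D9 to D11 was below all of Group M, but D12 was within it, and Group C ran from -1.07 to -0.57. Olr1375 (Or1f26) had -0.95, -1.58, -1.46 and -1.17 in Group M, -1.70, -1.36 and -1.82 in D9 to D11 and -0.77 in D12, a difference of -0.34 with overlapping groups, and of -0.12 with D12.

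Over the 134 members the median difference of Group D from Group M was 0.03, with 79 higher and 55 lower, and 0.02 over all probes. With D12 it was -0.02, with quantile normalization 0.13, so no direction is given for the family. The difference was within 0.5 for 123 members (91.8%), against 77.9% of all probes. At an unadjusted p of 0.05, 11 members passed (8.21%; 10 without Olr1), where 21.6% of all probes did, and they were Olr35, Olr1, Olr80, Olr260, Olr285, Olr337, Olr390, Olr775, Olr1262, Olr1349 and Olr1582. Groups D and M did not overlap for 14 members on 11 arrays (10.4%, against 16.0% of all probes) and for 3 on 12 arrays, Olr35, Olr775 and Olr1688, where 5.01% of all probes did not. For Olr80 the bound, 1.58-fold higher in Group D than in Group M, was again its measured difference and was fixed in direction by the rule. It makes no allowance for the spread between rats. Olr80 is among the 11 and the 14 members on 11 arrays, where its place is no test.

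No member passed the test between Group D and Group C. None was called with limma or by the criterion of the methods on 11 or on 12 arrays, and the unadjusted p did not exceed 0.05 for 12 of them (8.96%, against 5.98% of all probes). Of all probes, 0.00659% were called on 11 arrays and 0.00659% on 12, and 0.366% and 0.352% met the criterion of the methods. The members with an unadjusted p of at most 0.05 were Olr658, Olr791, Olr837, Olr859, Olr1002, Olr1057, Olr1206, Olr1262, Olr1349, Olr1381, Olr1582 and Olr1750. The median over the members was 0.02, and 124 (92.5%) were within 0.5, as were 91.4% of all probes. The signals did not overlap for 5 members on 11 arrays (3.73%, against 7.60% of all probes) and for 3 on 12, where 4.30% of all probes did not overlap. These 3 were Olr103, Olr1381 and Olr1582.

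Among members on all 12 arrays, the largest positive differences of Group D from Group C were those of Olr103, Olr1582 and Olr1303. Olr103 had -2.81, -3.51 and -3.78 in D9 to D11 and -3.33 in D12, all above Group C, a difference of 0.80 ± 0.36 (limma, adjusted p = 0.833; 0.52 without D9). Olr1582 (Or10j3) had -6.09, -6.49, -6.36 and -6.33 in Group C, -5.91, -5.80 and -5.76 in D9 to D11 and -6.07 in D12, a difference of 0.50 ± 0.12 (adjusted p = 0.527). Olr1582 was higher in every rat of Group D than in Group C, and Group M, from -6.32 to -6.0, overlapped both. Olr1303 (Or8g36c) had -6.01, -6.15, -6.12 and -5.70 in Group C, -6.02, -5.25 and -5.47 in D9 to D11 and -5.88 in D12, a difference of 0.42 ± 0.22 (adjusted p = 0.886; 0.25 without D10 and 0.63 without D9) with overlapping groups.

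The most negative differences of Group D from Group C among the same members were those of Olr727, Olr1750 and Olr1002. Olr727 (Or4c127) had -4.78, -5.25, -5.01 and -5.64 in Group C, -5.92, -5.34 and -6.19 in D9 to D11 and -6.40 in D12, a difference of -0.65 ± 0.31 (limma, adjusted p = 0.853). Olr1750 (Or2h2) had -4.71, -5.24, -5.65 and -4.91 in Group C, -5.90, -5.28 and -5.86 in D9 to D11 and -6.0 in D12, a difference of -0.56 ± 0.23 (adjusted p = 0.811). In both, D10 lay inside the range of Group C and the other rats of Group D below it. Olr1002 (Or6c69b) had -5.99, -6.28, -5.80 and -5.84 in Group C, -6.26, -6.23 and -6.51 in D9 to D11 and -6.04 in D12, a difference of -0.35 ± 0.15 (adjusted p = 0.822).

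**Figure D4:**
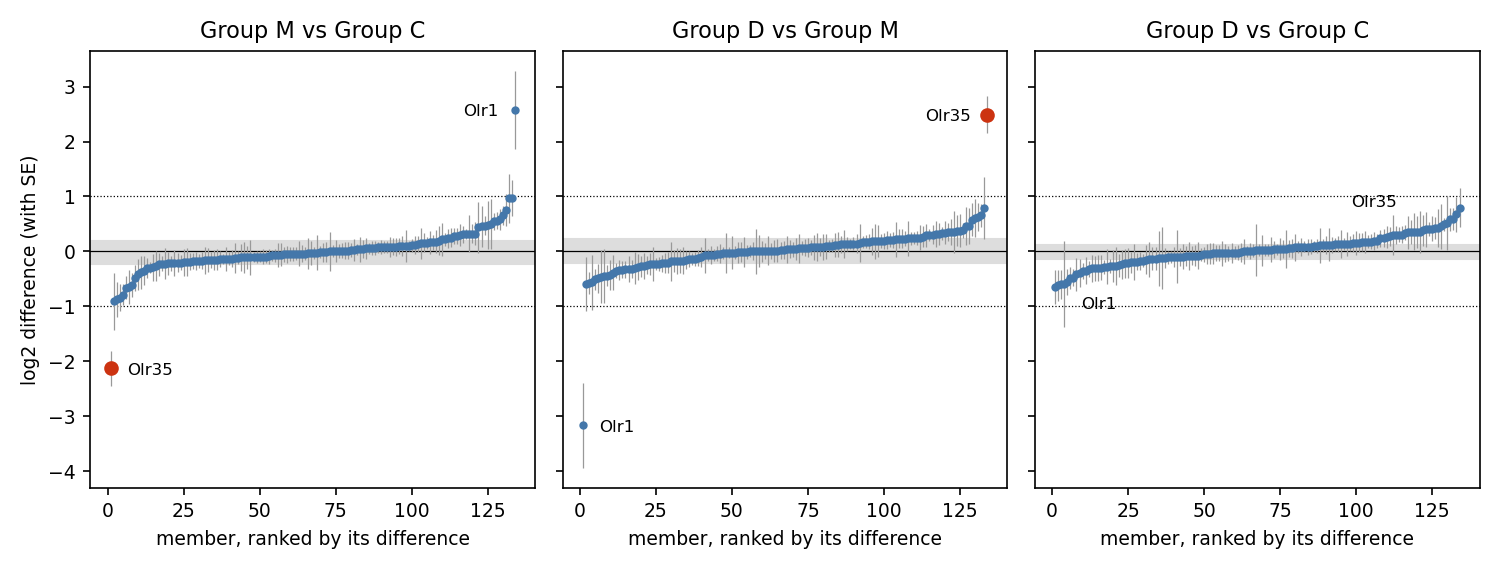
Log2 difference of each of the 134 members with its SE, ranked, for Group M vs Group C, Group D vs Group M and Group D vs Group C on 11 arrays; the grey band holds the middle quartiles of all probes and dotted lines mark 2-fold. Olr35 (red) and Olr1 lie outside the dotted lines in the first 2 panels, at -2.13 and 2.57 and at 2.49 and -3.17, and no member does in the third.

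The cell makeup of the samples was not even, and its part in these differences was not tested. The summed signal of the leukocyte markers Ptprc, Cd3e and Cd68 (log2) was 0.48, 2.08, 0.26 and 0.46 in C1 to C4, 2.35, 0.34, 2.04 and 2.09 in M5 to M8, 0.19, 0.52 and 0.44 in D9 to D11 and 2.92 in D12. All 3 markers were on every array. Beside these sums, Olr35 was -4.39 in D12, where the leukocyte sum was highest, -5.88 in M6, where it was the lowest of Group M, and -3.38 in C2, where it was the highest of Group C. Olr417 was -8.13, -6.74, -7.65 and -7.78 in Group C, -5.92, -8.03, -6.43 and -6.06 in Group M, -7.32, -6.92 and -6.93 in D9 to D11 and -4.54 in D12. Olr1646 (Or6e1) was -6.41, -5.73, -6.82 and -6.22 in Group C, -4.89, -7.19, -5.89 and -5.28 in Group M, -6.65, -6.07 and -6.10 in D9 to D11 and -3.87 in D12. The highest value of Olr417 and of Olr1646 was in D12 and the next in M5, the rats with the highest leukocyte sums.

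With 4 rats in each group, the sums of the other marker lists overlapped between groups. All 8 colon epithelium markers were on every array, and their sum ran from 7.59 to 7.97 in Group C, from 7.55 to 7.91 in Group M and from 7.43 to 8.06 in Group D. Of these markers Car1, a carbonic anhydrase of surface epithelium, passed the criterion of the methods. It differed by -1.62 in Group M from Group C and by 1.78 in Group D from Group M (limma, adjusted p = 0.107 and 0.100). Car1 was -0.23 in D12, from 1.25 to 2.40 in D9 to D11 and from -0.33 to 1.19 in Group M. In the same comparisons Krt20 differed by 0.55 and 0.14 and Epcam by 0.24 and -0.25. The median of the 8 markers was -0.29 and 0.35. The smooth muscle sum ran from 6.98 to 7.33, from 7.03 to 7.58 and from 7.13 to 7.5, and the enteric neuron sum from 1.04 to 1.38, from 0.97 to 1.39 and from 1.24 to 1.55. Without D12, which had the 1.24, the enteric neuron sums of Group D were 1.47, 1.51 and 1.55, above all rats of the other groups. The olfactory neuron sums of D9 to D11, from 0.34 to 0.81, were above those of Group M, from -0.51 to -0.02. In D12 the olfactory neuron sum was -0.54, below all rats of Group M. Each sum mostly follows its strongest gene, Uchl1 in the first list and Gng8 in the second. Gng8 was 0.26, 0.36 and 0.76 in D9 to D11, -0.69 in D12 and between -0.64 and -0.12 in Group M. Omp, from -6.05 to -5.24 in D9 to D11, overlapped Group M, from -6.59 to -5.40. In Group D vs Group M, Ncam2 differed by -0.12 and Adcy3 by 0.30. The part of these sums in the differences was not tested. The goblet sum ran from 6.49 to 7.33, from 6.87 to 6.99 and from 6.06 to 7.15. Of the 6 enteroendocrine markers, all detected, Tph1, the enzyme of serotonin synthesis, passed the criterion of the methods in Group M vs Group C at 1.06. Of 4 tuft cell markers 3 were on all arrays and Gfi1b on none. The 4 red cell markers on the array were on all arrays, and of 4 testis markers 2 were and 2 were on none. No marker of any list passed the limma call in any comparison.

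No gene of the olfactory lists passed the test. None of the 13 transduction genes, of the 3 for receptor export or of the 7 for receptor choice was called in any comparison. At an unadjusted p of 0.05 in Group M vs Group C, 2 of the 13 transduction genes were higher and 3 lower, where 22.7% of all probes passed, and the median of the list was -0.16. Gnal differed by 0.27 ± 0.09 (limma, adjusted p = 0.125), Gnb1 by 0.63 ± 0.18 (adjusted p = 0.111), Gng13 by -0.23 and Ric8b by -0.22. The 3 lower ones were Adcy3 at -0.64, the receptor kinase Adrbk2 at -0.76 and Cnga4, detected on no array, at -0.56. In Group D vs Group M the median of the transduction list was 0.07, and in Group D vs Group C it was -0.03. At the same unadjusted p in Group M vs Group C, 2 of the 7 receptor choice genes were lower and 0 higher, with a median of -0.32. Their sum ran from -1.51 to -1.31 in Group C and from -2.14 to -1.57 in Group M, without overlap. In Group D with D12 it ran from -1.74 to -1.16, overlapping both.

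The probes whose signal was most like that of Olr35 over the 12 arrays were sought among 14629 probes of named genes on all arrays. The highest Pearson r were those of Rsf1, a subunit of a chromatin remodelling complex (r = 0.93, Spearman rho 0.92), Hsd17b1, a steroid dehydrogenase (0.93 and 0.93), Nars2, a mitochondrial asparaginyl-tRNA synthetase (0.92 and 0.95), Gsta3, a glutathione transferase (0.92 and 0.90), and Il1rap, the accessory protein of the interleukin-1 receptor (0.91 and 0.84). The lowest were those of RGD1307396 (-0.92), Entpd1, an ectonucleotidase (-0.91), Osm, the cytokine oncostatin M (-0.91), Cul2, a scaffold of ubiquitin ligases (-0.91), and Thbs1, thrombospondin (-0.90). With the group means removed, r was between 0.70 and 0.90 for the 5 highest and between -0.89 and -0.77 for the 5 lowest. These 12 arrays share the group structure and the probes were taken from the ends of a long ranking, so the values are a description. Among the other members, Olr775 (Or4k48b) was the most like Olr35 (r = 0.87) and Olr1 the least (r = -0.81), and the median r was 0.11. Olr775 was -2.71, -3.0, -2.91 and -2.95 in Group C, -3.16, -3.20, -3.24 and -3.15 in Group M, -2.95, -2.71 and -3.01 in D9 to D11 and -3.10 in D12. Every rat of Group M was below every rat of both other groups, with differences of only -0.29 and 0.30 (limma, adjusted p = 0.133 and 0.155).

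No gene next to Olr35 on chromosome 1 was called with limma. Within 500 kb of its probe lay 21 probes of 15 named genes, of which 15 probes were on all 12 arrays. None passed the limma call in any of the 3 comparisons. The criterion of the methods, which Olr35 passed, is not given for these probes, so they are not said to fall short of it. The adjacent receptors Olr36, 10.8 kb away, and Olr37, 47.9 kb away, were on no array. Slco2b1, an organic anion transporter 82.8 kb before Olr35, differed by -1.24 in Group M from Group C (limma, adjusted p = 0.122) and by 0.90 in Group D from Group M. Serpinh1, a collagen chaperone, differed by 0.87 (adjusted p = 0.0533) and -0.82, and Map6, a microtubule-associated protein, by 1.33 (adjusted p = 0.109) and -1.48 at one probe and by 0.55 and -0.57 at the other, which is opposite to Olr35 in both comparisons. Chrdl2 differed by 0.94 and -1.09, and the probes of Klhl35, Rps3, Arrb1, Neu3, Spcs2, Xrra1, Pold3, Lipt2 and Kcne3 by between -0.46 and 0.53 in both comparisons.

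**Figure D5:**
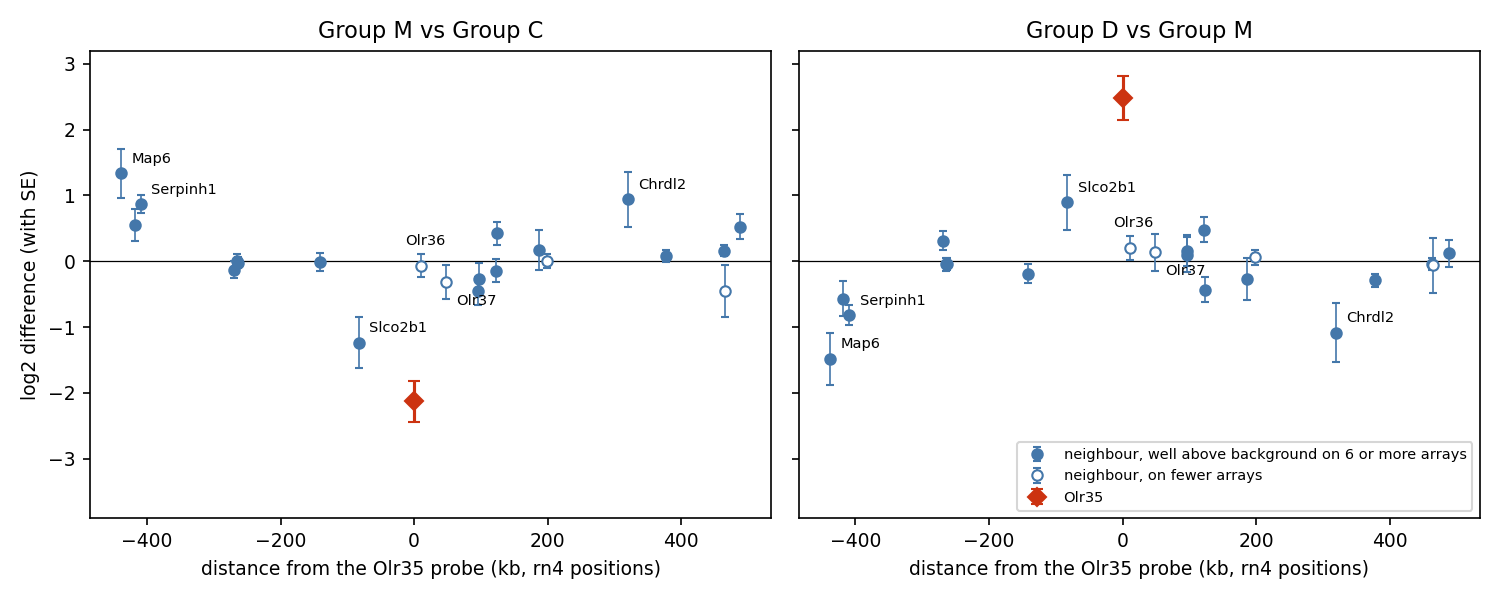
Log2 difference with SE of the named probes within 500 kb of the Olr35 probe, by distance in kb, for Group M vs Group C (left) and Group D vs Group M (right); open circles are probes well above background on fewer than 6 arrays. Olr35 (red) was at -2.13 and 2.49, Olr36 and Olr37 were at -0.07 and -0.32 on the left, and Map6 was at 1.33 and -1.48.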

How the data were processed

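Colon RNA of 12 rats was hybridized to Agilent 1-colour arrays, and the authors deposited the scanner software output (Feature Extraction 10.5.1.1), in which gProcessedSignal is a background-subtracted intensity and gIsWellAboveBG a mark per spot. They also deposited a table of normalized log2 values, used here as an alternative, with a column median between 7.283 and 7.284; its centring is not stated. The deposited marks, which are a measured value of the same spots, chose the members. Each array holds 62976 spots, 4259 of them controls, which were left out with outlier spots (277 to 521 per array); no spot was saturated, and 19 probes had a missing value somewhere. The log2 of the processed signal was shifted to the 75th percentile of its array, then replicate spots were averaged (2 spots for 124 members, 1 for 10). Positions are on rn4, as the file headers give them.

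Groups came from the sample labels. Differences and adjusted p-values (Benjamini-Hochberg over all 30367 probes) came from limma 3.58.1 (R 4.3.3) on 11 arrays in 1 model with the 3 groups sharing the spread, and a probe was called at an adjusted p up to 0.05 with a 2-fold difference. The criterion of the methods is a test of variance across the 3 groups and a Tukey test, both unadjusted, with a 2-fold difference. The fits were tested on simulated data. Other steps used Python 3.11.15, pandas 2.3.3, numpy 2.4.6 and matplotlib 3.10.9.

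All members are named. Values of every rat are given for Olr35, for members past either criterion, and for the top 3 and bottom 3 differences in each comparison among members on all 12 arrays, where a member already counted under Olr35 keeps its place. The genes most like Olr35 are the 5 with the highest and the 5 with the lowest Pearson r, its neighbours the named genes within 500 kb, and genes of a list are named if they pass or as its first entries. Adcy3, Adrbk2 and the undetected genes of the transduction and marker lists, Olr417, Olr1646, Olr80 and Olr775 were added after their values were seen. The members, lists and comparisons were chosen with earlier results of these data known. The summed level of a list is log2 of the sum of its genes' relative signals, with the probe of highest mean signal for each gene; 1 marker of the leukocyte list is not reported here. Matching bases between probes were counted without gaps. The alternatives tried were D12 included, other background corrections, scalings and filters, the deposited log2 table, array weights, a replicate block, a mean trend, other detection rules and leaving out each array.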

Additional observations from a re-analysis of the deposited data

Results flagged for a closer look

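The signal of Olr35 in D12 was -4.39, while the other rats of Group D lay between -2.85 and -2.59. The gap to the nearest rat was 0.855 of the range of the group, above the 95% critical value of Dixon's test for 4 samples. Olr417 passed in the same way, with -4.54 in D12, between -7.32 and -6.92 in D9 to D11 and a gap of 0.858. These were 2 of 51 groups of 4 rats examined for the 17 members with all values printed. Chance passes about 5% of groups that were not chosen by their values. Some of the 17, Olr417 among them, were added after their values were seen. Olr417 was marked on 6 arrays, D12 among them, so the rule used its D12 value. The 2 passes are therefore a description and are not set against the 5%.

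D12 is a rat outside the main comparisons, and its Olr417 signal stood against Group C between -8.13 and -6.74 with no array well above background. The leukocyte sum of D12 was 2.92, the highest of the 12 rats, and its part was not tested.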

How the results depend on the processing

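The 21 differences of named members gave 546 values under the alternatives, of which 512 kept direction and side of the threshold. Of the others, 25 lost the call of Olr35 (12 in Group M vs Group C, 13 in Group D vs Group M), 6 gained that of Olr1, and 3 turned the sign of Olr35 in Group D vs Group C, to -0.0588 on 12 arrays with limma, with the criterion of the methods and with the replicate block. Over all alternatives Olr35 ran from -2.33 to -1.23 in Group M vs Group C and from 1.54 to 2.69 in Group D vs Group M. Olr1 ran from 1.312 to 3.27 and from -3.676 to -1.465, with the values nearest 0 under the normexp background correction. The count of members called, 1 in each of these comparisons, was 0 and 0 on all 12 arrays, where 10 and 4 of all probes were called. With only the compared groups in the fit it was 0 and 0, with 23 and 12 of all probes. Array weights gave 4 (Olr1, Olr35, Olr80 and Olr417) and 2, with 2106 and 2096 of all 30367 probes. Olr80 and Olr417 had passed the rule only through the groups where they were high. The criterion of the methods gave 2 and 2, with 707 and 805 of all probes. Leaving out 1 array gave 0 to 3 members in Group M vs Group C and 0 to 2 in Group D vs Group M. The fits without M6 gave the highest counts, 3 (Olr1, Olr35 and Olr417) and 2 (Olr1 and Olr35), with 1778 and 1978 calls over all probes against 51 and 38. With members counted from 1 array, 2 (Olr35 and Olr943) were called in Group D vs Group M. The cause of these changes was not tested. The number of Olr probes detected was 134, but 88 when all 12 arrays were required, 346 with 1 array and 427 by the mark for positive and significant signal. With the median as scaling, the median of all probes in Group D vs Group M moved to 0.112.

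Rats of the groups share numbers in the labels, which do not say whether the numbers pair the rats. Deviations of same-numbered rats correlated between -0.719 and 0.584 over 20305 probes. Rats with different numbers were not compared, so these values cannot settle whether the numbers pair them. With the replicate block, 0 and 0 members were called (limma, adjusted p of Olr35 0.156 and 0.215), where 1 and 1 of all probes were. On 12 arrays the block gave 0 and 0 members, where 6 and 3 of all probes were called.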

Other observations

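Rsf1 and Nars2, which were among the 5 genes most like Olr35, lie on the same chromosome, 2147 kb and 2777 kb before its probe on rn4. This was noticed after their values were seen. Of the 14629 probes compared, 93 (0.636%) lay within 3000 kb of Olr35, and only Rsf1 and Nars2 of these were among the 50 with the highest r. The median r of the 93 was 0.10 with quartiles of -0.38 and 0.49, and that of all compared probes was 0.12 with quartiles of -0.38 and 0.50.

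Rsf1 differed by -0.78 in Group M from Group C and by 0.74 in Group D from Group M, Nars2 by -0.59 and 0.74, and Olr35 by -2.13 and 2.49, with Group M shared by both comparisons. Thbs1, the gene of thrombospondin, differed by 2.74 and -3.24, and Entpd1, an ectonucleotidase, by 0.64 and -1.09.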
